A study of Mus musculus with 6 samples.

Results

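The 10 genes described here encode RNA-binding proteins listed as neuron-enriched, though Rbfox2 is the most broadly expressed of its family. The genes are Elavl2, Elavl3 and Elavl4, Rbfox1, Rbfox2 and Rbfox3, Nova1 and Nova2, and Celf3 and Celf4. They were chosen by gene symbol as members of the Elavl, Rbfox, Nova and Celf families, and all 10 were found among 17607 genes in the deposited table and among the 15882 genes tested. Their transcripts were measured by RNA sequencing in auditory nerve microdissected out of the cochlea of mice of the inbred strain CBA/CaJ. The 3 old mice were 2.5 years old and the 3 young mice were 2 months old, and no other treatment or genotype is given for either group. Both cochleas of a mouse were pooled for 1 library, so the replicates were separate animals. The auditory nerve holds the cell bodies and fibres of the spiral ganglion neurons, together with Schwann cells and satellite glia.

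Proteins of these 4 families bind short sequences in transcripts and steer splicing, stability, transport and translation, which shapes the protein repertoire of neurons. Elavl proteins (Hu proteins) bind U-rich and AU-rich stretches, often in 3′ untranslated regions, and generally stabilise the transcript. Rbfox proteins bind a GCAUG element beside alternative exons, Nova proteins bind clusters of short UCAU-like elements, and Celf proteins bind GU-rich elements. The values below are gene totals and do not measure the splicing that these proteins control.

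Of the 10 members, 5 were lower in old nerves and 0 were higher at an adjusted p under 0.05 (limma with Benjamini-Hochberg adjustment over all tested genes). The log2 fold change was negative in all 10 (in Nova1 its sign changed with the setting). Before adjustment 7 were lower and 0 higher in limma. The share of all genes under that unadjusted p was not counted, so no excess over other genes can be read from the 7. Among all genes tested, limma called 18.7% lower and 15.9% higher, that is 2969 and 2524 genes, against 2338 lower and 3439 higher with upper-quartile scaling. With edgeR 5 members were lower and 0 higher, against 2859 lower and 2559 higher among the 15882 genes tested. The 5 were Elavl3, Rbfox2, Rbfox3, Nova2 and Celf3, with at least 1 from each family. The median log2 fold change of the 10 members was -0.77, and that of all genes tested was close to 0. In 6 of 10 members all 3 old libraries lay below all 3 young libraries, as they did in 26.3% of tested genes. Nova1 and Elavl4 showed the smallest differences, and the 4 members whose groups overlapped were Elavl4, Rbfox1, Nova1 and Celf4. In bulk tissue, fewer neurons and less RNA per neuron cannot be told apart. Old 3 was the highest of the old libraries in 8 of 10 members, against 39.5% of all genes tested and 73.6% of all genes called lower.

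**Figure D1:**
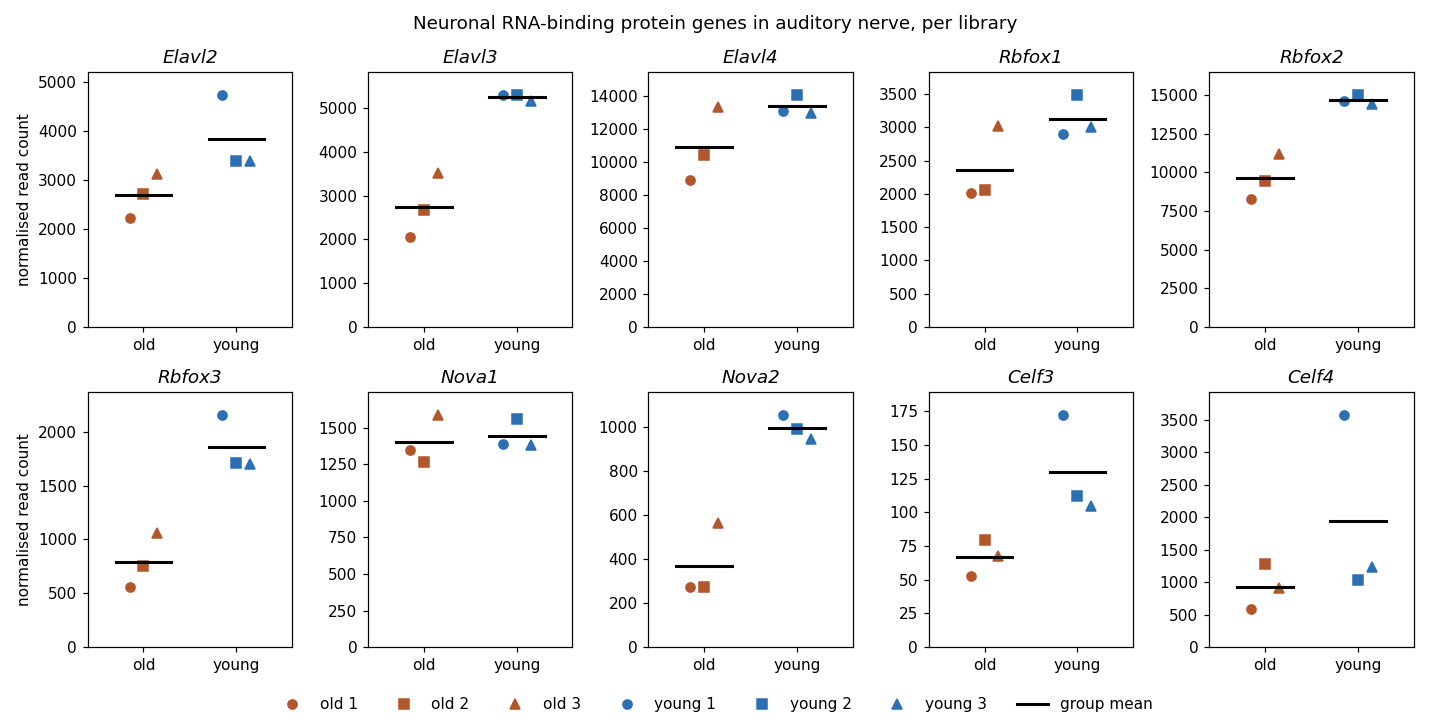
Normalised read counts of the 10 members in each library (vertical axis starts at 0), old on the left and young on the right; points are single libraries and the bar is the mean of 3. Elavl3, Rbfox2, Rbfox3 and Nova2 lie lower in all 3 old libraries, Nova1 overlaps, and the young mean of Celf4 lies far above 2 of the 3 young libraries because young 1 stands at 3567.

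Reads of family members can be told apart where their sequences differ. Between the longest coding sequences, no pair within a family shared a run of 50 bases. The longest exact runs shared by the coding sequences of a pair of members are shown. Untranslated regions and matches with mismatches were not searched, so these runs do not bound how far a read could match both genes. The 2 longest were both of 29 bases, one between Elavl3 and Elavl4 and one between Rbfox1 and Rbfox2, read from the GENCODE M21 transcripts (GRCm38).
Elavl3 and Elavl4: ttcggcttcgtcaccatgaccaactacga
Rbfox1 and Rbfox2: accgtggtagagggccgtaaaatcgaggt
The longest run shared by Nova1 and Nova2 was 15 bases. No source used here says whether the libraries kept strand, so an antisense gene cannot be separated from its partner. This touches Nova2, whose annotated exons overlap 2652 bases of the antisense gene Gm26821, and Celf3, whose exons overlap 74 bases of the antisense gene Riiad1. On their own strand, Elavl3 exons overlap 256 bases of Gm49318 and Nova1 exons overlap 310 bases of Gm33869.

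Levels between genes were compared per length, as normalised counts per kb of the longest protein-coding transcript. Elavl4 was the most abundant member, at 2625 ± 543 per kb in old nerves and 3221 ± 143 per kb in young nerves (SD, n = 3 each), and Rbfox2 was the next, at 1394 ± 213 in old and 2122 ± 43.2 in young nerves. Celf3 was the least abundant in both groups, at 21.0 ± 4.24 per kb in old and 40.8 ± 11.7 per kb in young nerves, with Nova2 above it at 44.1 ± 19.9 in old and 119 ± 6.37 in young nerves. The order in old nerves was Elavl4, Rbfox2, Rbfox1, Elavl2, Elavl3, Rbfox3, Celf4, Nova1, Nova2 and Celf3. The order in young nerves differed only in that Elavl3 stood ahead of Rbfox1 and Elavl2. Neighbours whose library ranges overlapped in old nerves were Rbfox1 with Elavl2, Elavl2 with Elavl3, Rbfox3 with Celf4, and Celf4 with Nova1. In young nerves they were Elavl3 with Rbfox1, Rbfox1 with Elavl2, and Rbfox3 with Celf4.

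Among the Elavl genes, Elavl3 (HuC), a pan-neuronal Hu protein, fell in old nerves. The libraries old 1, 2 and 3 held 2049.8, 2674 and 3524 normalised counts, against 5293, 5283 and 5165 in young 1, 2 and 3. All old libraries lay below all young libraries, and the old libraries were spread more widely than the young ones, which lay close together. The mean was 2749 ± 739.9 in old nerves and 5247 ± 71.2 in young nerves, so that old nerves held 52.4% of the young level. The log2 fold change was -0.97 ± 0.18 (SE; limma, adjusted p = 0.00861). Elavl3 lies in mm10 at chr9:22015005-22052023 on the minus strand. Across all genes the changes varied with transcript length and GC content, and after removal of these 2 trends from each library the log2 fold change of Elavl3 was -0.72 (adjusted p = 0.0196).

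Elavl2 (HuB), the neuronal Hu protein that is also found in gonads, missed the threshold. Its normalised counts were 2226, 2705 and 3126 in old 1, 2 and 3, against 4729, 3377 and 3383 in young 1, 2 and 3. The groups did not overlap, and young 1 stood above the other young libraries. The log2 fold change was -0.51 ± 0.17 (95% interval -0.90 to -0.11, limma adjusted p = 0.0540). The adjusted p was 0.0595 with edgeR and 0.0171 with DESeq2, and without young 1 the log2 fold change was -0.35 (limma adjusted p = 0.125). It passed without old 3 (-0.62, adjusted p = 0.0325) and after removal of the length and GC trends (-0.63, adjusted p = 0.0436). In the authors' deposited table its FDR was 0.0171.

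Elavl4 (HuD), known for stabilising the Gap43 transcript, differed by less than the test could separate. It had normalised counts of 8915, 10421 and 13342 in old 1, 2 and 3, against 13085, 14045 and 12956.5 in young 1, 2 and 3. Old 1 and old 2 lay below every young library, and old 3 lay within the young range. The log2 fold change was -0.31 ± 0.14 (95% interval -0.65 to 0.02, limma adjusted p = 0.126). Without old 3 it was -0.47 (adjusted p = 0.00931), and without old 1 it was -0.18 (adjusted p = 0.304).

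Among the Rbfox genes, Rbfox3 showed the largest change. It encodes the protein known as NeuN, a nuclear marker of many mature neurons. Its normalised counts were 557, 752 and 1065 in old 1, 2 and 3, against 2155, 1714 and 1704 in young 1, 2 and 3. The highest old library lay well below the lowest young library. The mean was 791 ± 256 in old nerves and 1858 ± 258 in young nerves, or 42.6% of the young level, with a log2 fold change of -1.27 ± 0.23 (limma, adjusted p = 0.00812). Rbfox3 lies at chr11:118489760-118911597 on the minus strand (mm10). After removal of both trends the log2 fold change was -1.06 (adjusted p = 0.0148).

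Rbfox2, the most broadly expressed member of its family, fell as well. Its normalised counts were 8267, 9423 and 11187 in old 1, 2 and 3, against 14576, 14991.5 and 14412 in young 1, 2 and 3. Every old library lay below every young library, with the young ones close to each other. The mean was 9626 ± 1470.4 in old nerves and 14660 ± 299 in young nerves, or 65.7% of the young level, with a log2 fold change of -0.62 ± 0.11 (limma, adjusted p = 0.00842). Rbfox2 lies at chr15:77078990-77307053 on the minus strand and has a transcript of 6907 bases, the third longest among the members. After removal of both trends it was -0.32 (adjusted p = 0.0457).

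Rbfox1, found in neurons, heart and skeletal muscle, did not pass. Rbfox1 counts after normalisation were 2017, 2051 and 3012 in old 1, 2 and 3, against 2899.7, 3484 and 3003 in young 1, 2 and 3. Old 1 and old 2 lay below the young libraries, and old 3 lay among them. The log2 fold change was -0.43 ± 0.16 (95% interval -0.81 to -0.05, limma adjusted p = 0.0793). Without old 3 it was -0.62 (adjusted p = 0.00464). The summed level of 9 skeletal muscle markers was 334 to 363 in old nerves and 159 to 201 in young nerves. Actn3 made up most of it, at 207 to 314 in old and 99.1 to 142 in young nerves, and was the 1 of 3 tested muscle genes that was higher in old nerves. Ckm was at 0 in young 1 and Myh1 at 0 in old 3. Their part in the Rbfox1 values was not tested.

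The Nova pair gave both the largest and the smallest change among the members. Nova2 had normalised counts of 274, 272 and 562 in old 1, 2 and 3, against 1053, 989.9 and 947 in young 1, 2 and 3. All old libraries lay far below the young ones, and old 3 stood apart from the other old libraries. The mean was 369 ± 167 in old nerves and 997 ± 53.3 in young nerves, or 37.1% of the young level, and the log2 fold change was -1.52 ± 0.27 (limma, adjusted p = 0.00821). Nova2 has the longest transcript of the 10 members, 8372 bases, and removal of both trends gave a log2 fold change of -1.03 (adjusted p = 0.0230). It lies at chr7:18925888-18965319 on the plus strand (mm10).

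Nova1 had normalised counts of 1347, 1266 and 1586 in old 1, 2 and 3, against 1386, 1559 and 1381 in young 1, 2 and 3. The libraries of both ages were mixed in rank. The mean was 1399.5 ± 166 in old nerves and 1442 ± 101 in young nerves, with a log2 fold change of -0.05 ± 0.10 (95% interval -0.29 to 0.20, limma adjusted p = 0.750). The sign was negative in 14 of 19 other settings, and the gene passed in 0 of them. Nova1 lies at chr12:46694517-46818775 on the minus strand, and its transcript of 7154 bases is the second longest of the members.

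Of the Celf genes, Celf3 had the fewest reads of all 10 members. This brain-enriched splicing regulator had normalised counts of 52.9, 79.7 and 67.7 in old 1, 2 and 3, against 172, 112 and 105 in young 1, 2 and 3. The groups did not overlap, and young 1 was the highest library. The mean was 66.8 ± 13.4 in old nerves and 129.6 ± 37.0 in young nerves, with a log2 fold change of -0.93 ± 0.26 (limma, adjusted p = 0.0309). This call rests on each of 5 libraries, since the adjusted p was 0.0873 without old 1, 0.0525 without old 3, 0.0847 without young 1, 0.0703 without young 2 and 0.0530 without young 3. After removal of both trends the log2 fold change was -0.74 (adjusted p = 0.0668). The Celf3 gene lies at chr3:94478295-94492198 on the plus strand (mm10).

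Celf4, which regulates transcripts in excitatory neurons and whose loss causes seizures in mice, did not pass. Its normalised counts were 588, 1276 and 909 in old 1, 2 and 3, against 3567, 1033 and 1238 in young 1, 2 and 3. Young 1 stood apart, and the other 5 libraries overlapped. The log2 fold change was -0.91 ± 0.48 (95% interval -2.05 to 0.22, limma adjusted p = 0.180), and without young 1 it was -0.36 (adjusted p = 0.411). Celf4 lies at chr18:25477620-25753983 on the minus strand.

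**Figure D2:**
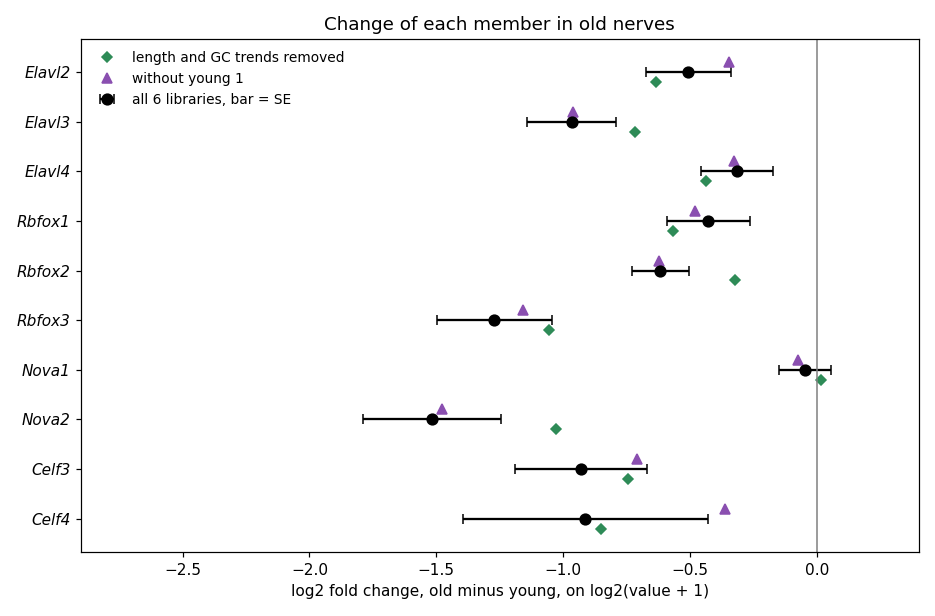
Log2 fold change of each member, old minus young, with its SE (black), with the length and GC trends removed (green) and without young 1 (purple). Nova2 lies farthest to the left at -1.52, Nova1 lies beside 0, and Celf4 moves to -0.36 without young 1.

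Young 1 was also high in some other genes of neurons, which were chosen after their values were seen. Of the 20 pan-neuronal genes, young 1 was the highest young library in 12, against 32.5% of all genes tested. For others, among them Slc17a7 and Prox1, it was the lowest young library. The 20 genes summed to 609167, 610227 and 607058 in young 1, 2 and 3. Abundant genes weigh most in this sum, and they differed in opposite directions. Calb2 was at 78045.5, 108936 and 110917 in young 1, 2 and 3, and Snap25 at 107390, 98218.8 and 94276.2. The near-equal sums therefore do not show that young 1 matched the other young libraries gene by gene. Celf6, a relative of Celf3, had 38.1, 41.8 and 46.4 normalised counts in old 1, 2 and 3, against 147, 45.2 and 40.7 in young 1, 2 and 3. Syt1, a calcium sensor of synaptic vesicles, had 232, 1015 and 154 in the old libraries, against 6020.3, 289.98 and 570.4 in the young ones. Young 1 thus exceeded every other library in both genes. Across a list of 11 markers of central neurons, also chosen after seeing the data, young 1 was the highest young library in 9 and old 2 the highest old library in 9. The summed level of the 11 ranged over 2903 to 4394 in old and 2208 to 3798 in young nerves. Most of that sum came from Cbln1, Zic1 and Fat2, and of the 9 genes tested 1, Cbln1, was higher in old nerves (1566 ± 311 in old and 644 ± 43.2 in young nerves, limma adjusted p = 0.00445) and 0 were lower. Zic1 averaged 1196 ± 585 in old and 1242 ± 405 in young nerves. Slc6a5 was at 0 in old 1, young 2 and young 3, and both Pcp2 and Slc32a1 were at 0 in old 1, with Pcp2 also at 0 in old 3. The part of these cells in the Celf4 values was not tested. Without young 1, 4 of the 10 members were lower, against 2016 of 16070 genes tested. The median log2 fold change of the members was then -0.55, and Elavl3, Rbfox2, Rbfox3 and Nova2 had values of -0.96, -0.62, -1.16 and -1.48. Without both young 1 and old 2, 0 members passed in limma or edgeR, and the median was -0.62. Limma called 945 of 15832 genes lower in that fit. Before adjustment 6 members were lower in limma. The share of all genes under that unadjusted p was not counted, so no excess can be read from the 6. The log2 fold changes of Elavl3, Rbfox2, Rbfox3 and Nova2 were then -0.96, -0.61, -1.15 and -1.30, with adjusted p between 0.0569 and 0.0646.

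**Figure D3:**
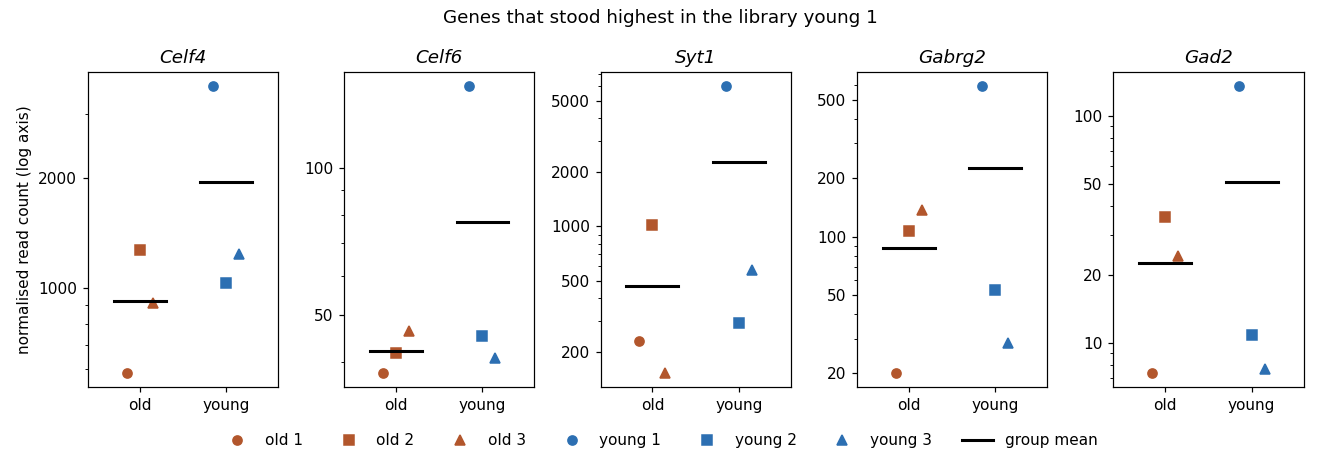
Normalised read counts on log axes for Celf4 and 4 other genes, old on the left and young on the right; points are libraries and bars are means of 3. The circle of young 1 is the highest point in every panel.

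Ratios between family members within a library remove what scales all of a family together. They do not remove a change in the mix of cells where the members of a pair are expressed in different cells. Which cells held each transcript was not measured, and Rbfox2 is broadly expressed. The difference in log2 ratio was tested for 8 pairs with a two-sided exact permutation test, whose smallest p with 3 against 3 libraries is 0.1, and the smallest p adjusted over the 8 pairs was 0.2, so no pair could pass. The log2 ratio of Nova2 over Nova1 was -2.29, -2.21 and -1.50 in old 1, 2 and 3, against -0.40, -0.65 and -0.54 in young 1, 2 and 3. The groups did not overlap, and the difference was -1.47 (exact permutation p = 0.1, n = 3 each). Per length, Nova2 made up 17.9% ± 4.68 of the Nova total in old nerves and 37.2% ± 2.11 in young nerves (SD, n = 3 each). After removal of both trends the difference in log2 ratio was -1.05.

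The log2 ratio of Rbfox3 over Rbfox2 was -3.89, -3.64 and -3.39 in old 1, 2 and 3, against -2.76, -3.13 and -3.08 in young 1, 2 and 3. The ratio was lower in every old library, by -0.65 between the means (exact permutation p = 0.1, n = 3 each), and Rbfox3 over Rbfox1 also did not overlap, with a difference of -0.84, or -0.49 after removal of both trends. Per length, Rbfox3 made up 10.2% ± 1.41 of the Rbfox total in old and 15.8% ± 2.19 in young nerves. The ratio of Elavl4 over Elavl3 was 2.12, 1.96 and 1.92 in old 1, 2 and 3, against 1.31, 1.41 and 1.33 in young 1, 2 and 3. It was higher in every old library, with a difference of 0.65 (exact permutation p = 0.1, n = 3 each), which was 0.28 with the length and GC trends removed. Elavl3 made up 14.3% ± 0.932 of the Elavl total per length in old nerves and 20.2% ± 0.507 in young nerves. The other 4 pairs overlapped, among them Celf4 over Celf3 with a difference of 0.02, and Rbfox1 over Rbfox2 with 0.19, which was -0.24 with the trends removed.

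**Figure D4:**
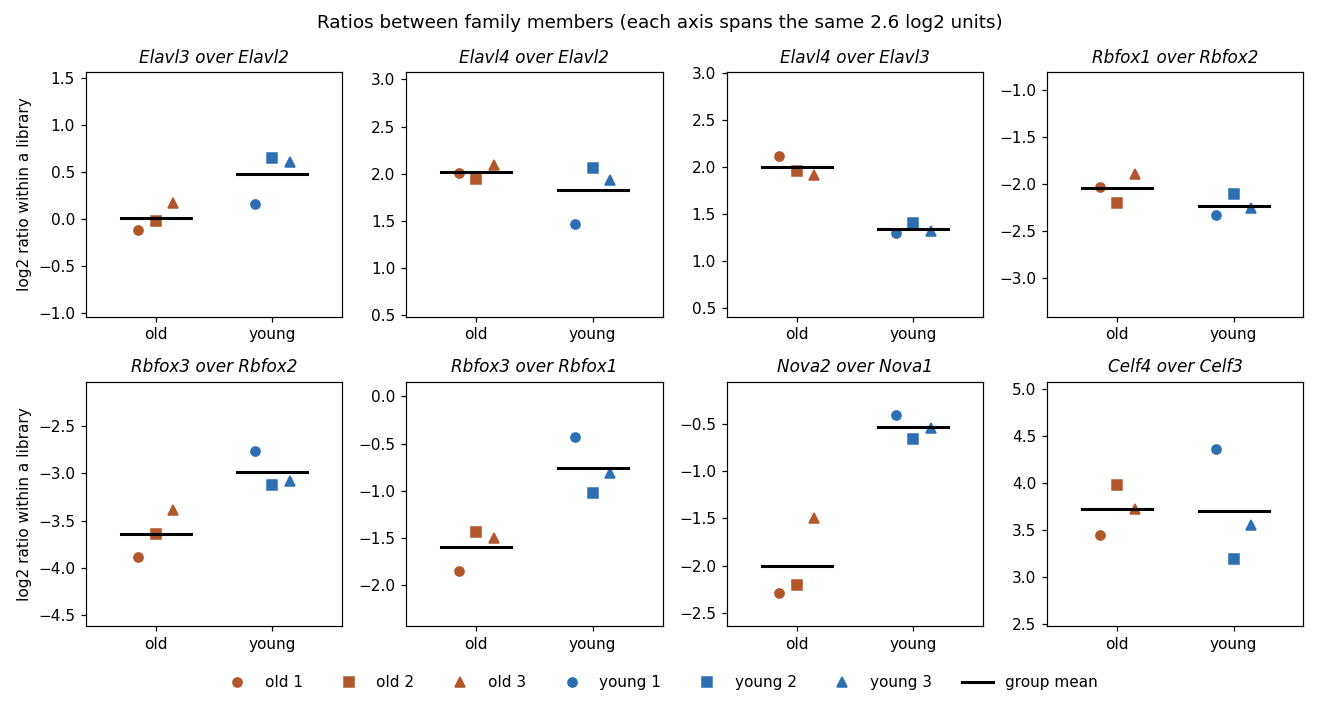
Log2 ratio of normalised counts between members of a family in each library, old on the left and young on the right; points are libraries and bars are means of 3. Nova2 over Nova1, Rbfox3 over Rbfox2 and Rbfox3 over Rbfox1 are lower in all old libraries, and Elavl4 over Elavl3 is higher in all of them.

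The promoters of Elavl3 and Nova2, which fell, and of Nova1, which did not pass, are shown to set the start regions of members with different behaviour side by side. Each is the 250 bases before a RefSeq start site in GRCm38.p6, on the strand of the gene, and 8 of the 10 members had an entry. Capitals mark matches on either strand to the TATA box (searched as TATAAA), the CCAAT box (searched as CCAAT), the GC box (searched as GGGCGG) and the E-box (searched as CAGCTG). These matches did not overlap one another.
Elavl3 promoter, chr9:22052024-22052273, minus strand: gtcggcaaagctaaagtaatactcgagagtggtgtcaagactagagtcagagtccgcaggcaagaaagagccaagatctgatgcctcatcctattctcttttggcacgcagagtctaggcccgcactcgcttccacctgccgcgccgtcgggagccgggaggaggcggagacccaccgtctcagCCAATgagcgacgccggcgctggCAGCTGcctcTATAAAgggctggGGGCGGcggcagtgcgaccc
Nova2 promoter, chr7:18925638-18925887, plus strand: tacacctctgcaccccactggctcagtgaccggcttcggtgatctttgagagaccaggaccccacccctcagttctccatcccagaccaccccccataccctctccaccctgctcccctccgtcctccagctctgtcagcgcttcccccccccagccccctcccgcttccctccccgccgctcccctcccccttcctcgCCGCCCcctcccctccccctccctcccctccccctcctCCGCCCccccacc
Nova1 promoter, chr12:46818768-46819017, minus strand: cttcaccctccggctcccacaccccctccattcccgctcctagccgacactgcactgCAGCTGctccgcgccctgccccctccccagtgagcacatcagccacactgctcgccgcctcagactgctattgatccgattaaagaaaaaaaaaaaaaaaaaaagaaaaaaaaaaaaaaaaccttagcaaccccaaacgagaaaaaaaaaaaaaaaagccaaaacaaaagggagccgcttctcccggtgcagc
Elavl3 held 1 match to each of the 4 motifs, Nova2 held 2 GC boxes, and Nova1 held 1 E-box. Of 32851 RefSeq promoter windows of the same length, 12.4% held the TATA box, 33.8% the CCAAT box, 32.7% the GC box and 13% the E-box. The window held 20 CpG in Elavl3, 10 in Nova2 and 11 in Nova1, against a median of 6 over all windows. The left part of the RE1 element (searched as CAGCACC) and its right part (searched as GGACAGC), which 5.73% and 5.28% of all windows held, had no match on either strand of these 3 windows.

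The relatives outside the member set are Elavl1 (HuR), Celf1 and Celf2, which most tissues express, and Celf5 and Celf6. Of these 5, 1 was lower in old nerves and 0 were higher, with a median log2 fold change of -0.16, or -0.03 without young 1. After removal of the length and GC trends 0 were lower and 1, Celf1, was higher, with a median of -0.04. Celf5, a brain-enriched splicing regulator, had 208, 229.6 and 230.2 normalised counts in old 1, 2 and 3, against 372, 328 and 315 in young 1, 2 and 3 (log2 fold change -0.60 ± 0.12, limma adjusted p = 0.0115). Its groups did not overlap. It missed the threshold with the length and GC trends removed (-0.37, adjusted p = 0.0568). Elavl1 averaged 3043 ± 46.1 in old and 3399 ± 38.3 in young nerves (log2 fold change -0.16 ± 0.05, adjusted p = 0.0594), and Celf2 had a log2 fold change of 0.06. Celf1 had 0.05 (adjusted p = 0.611), and after removal of both trends 0.30 (adjusted p = 0.0365).

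Of 25 other regulators of neuronal RNA, 9 were lower and 2 were higher in old nerves, with a median log2 fold change of -0.07, or -0.10 without young 1. With upper-quartile scaling 5 were lower and 3 were higher, and after removal of the length and GC trends 6 were lower and 2 were higher. The 4 with the smallest p were all lower, and 3 of them are given here. Cpeb3, a translational regulator at synapses, averaged 2179 ± 521 in old and 4334 ± 365 in young nerves (log2 fold change -1.02 ± 0.16, limma adjusted p = 0.00671). Fxr2, a relative of the fragile X protein, changed by -0.55 ± 0.10 (adjusted p = 0.00825), and Srrm3, a regulator of neuronal microexons, by -0.89 ± 0.19 (0.0132). The neuronal microexon regulator Srrm4, the RNA-binding protein Khdrbs1 (Sam68), Msi2, Stau1 and Stau2 were among the other genes that fell. These genes are not among the 4 with the smallest p. After removal of both trends Srrm4 (-0.41, adjusted p = 0.117) and Msi2 (-0.20, adjusted p = 0.125) missed the threshold, while Khdrbs1, Stau1 and Stau2 passed. The 2 that rose were Ptbp1, a repressor of neuronal exons in non-neuronal cells, with 0.32 ± 0.09 (adjusted p = 0.0300), and its relative Ptbp3, with 0.40 ± 0.13 (adjusted p = 0.0482). They are named because they make up that count, after their values were seen. The count of lower genes was 2 to 5 with old 1, old 2, young 2 or young 3 left out in turn (5, 4, 2 and 3), and the count of higher genes was 0 without old 1, old 2, young 1 or young 2 and 1 without young 3.

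A list of 16 transcripts known from other work as bound or spliced by these families was described, and 15 were tested. Of these, 7 were lower in old nerves and 0 were higher, with a median log2 fold change of -0.57, or -0.31 without young 1. Ptbp2 stands in this list and that of the regulators, and Snap25 in this list and the neuronal one. Ank3 (ankyrin G), the scaffold of the axon initial segment and the nodes of Ranvier, averaged 3445 ± 614 in old and 6659 ± 530.1 in young nerves (log2 fold change -0.96 ± 0.13, limma adjusted p = 0.00513). Scn8a, the nodal sodium channel Nav1.6, averaged 8152 ± 2677 in old and 18813 ± 770.1 in young nerves (-1.26 ± 0.21, adjusted p = 0.00720). Camta1, a transcription factor, changed by -0.82 ± 0.16 (adjusted p = 0.0111) and Kcnj6, a potassium channel subunit with few reads, by -2.03 ± 0.43 (0.0132). Agrn (agrin) was among the other 3 that fell (-0.27, adjusted p = 0.0292), but after removal of both trends its sign turned (0.21, adjusted p = 0.101). Gap43 (adjusted p = 0.369) and Vamp1 (adjusted p = 0.308) did not pass and are named after their values were seen, as counterexamples. With the length and GC trends removed 4 of the 15 were lower, and 4 were lower without young 2 and 4 without young 3. The difference in the level of a bound transcript was not tied to that of any member here.

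General neuronal genes are given beside the members. Of 20 pan-neuronal and spiral ganglion genes, 7 were lower and 0 were higher in old nerves, with a median log2 fold change of -0.40. Their summed level was 390191, 452902 and 553936 in old 1, 2 and 3, against 609167, 610227 and 607058 in young 1, 2 and 3. Old 1 had the lowest and old 3 the highest sum among old libraries, and all 3 lay below the young libraries. Nefm, a neurofilament subunit, changed by -1.05 ± 0.21 (limma adjusted p = 0.0106), Prox1, a transcription factor of spiral ganglion neurons, by -1.14 ± 0.24 (0.0124), Slc17a7, the vesicular glutamate transporter, by -1.07 ± 0.24 (0.0157) and Ina, another neurofilament-class subunit, by -1.09 ± 0.25 (0.0169). Of the defining markers, Nefl fell (-0.50 ± 0.15, adjusted p = 0.0371), while Tubb3 (-0.23 ± 0.13, adjusted p = 0.214) and Snap25 (-0.35 ± 0.18, adjusted p = 0.170) did not pass. The count of lower pan-neuronal genes was 4, 4 and 12 with old 1, 2 or 3 left out, and 4, 1 and 2 with young 1, 2 or 3 left out. The part of a lower share of neuronal RNA in the members' values was not tested.

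Markers of the other cells of the tissue are given beside the members too. Of 12 Schwann cell and myelin genes 5 were lower and 1 was higher, with a median of -0.20 and sums of 456986 to 511586 in old and 467535 to 535617 in young nerves. Of 12 macrophage genes 11 were higher and 0 lower, with a median log2 fold change of 2.09, and Cd68 averaged 1035 ± 243 in old and 223 ± 40.2 in young nerves (limma adjusted p = 0.00399). The summed macrophage level was 15621 to 23046 in old and 5771 to 7568 in young nerves, and it was lowest among old libraries in old 3, which was the highest old library for 8 members. Of 8 astrocyte and oligodendrocyte genes 3 were higher, with sums of 50431 to 62519 in old and 27427 to 42717 in young nerves. Of 8 hair cell genes 0 passed in limma or edgeR and 0 were under 0.05 before adjustment in limma, with sums of 2321 to 5314 in old and 2649.6 to 6555 in young nerves, and of 8 osteoblast genes 6 were lower, with sums of 7105 to 12497 in old and 22174 to 27581 in young nerves. Wherever 0 genes of a list are given, with all libraries, as higher or as lower, 0 were so in limma before adjustment and 0 by edgeR. The part of these cells in the members' values was not tested.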

How the data were processed

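Reads were counted and normalised by the authors. The submitters' processing notes name the mm10 build, TopHat2, Partek and DESeq2. No source used here gives versions, settings or annotation. Per the labels' protocols, RNA came from a miRNeasy kit and libraries from a TruSeq RNA kit. The deposited values are a signal, normalised read counts in which each library is a whole multiple of the value of 1 read, 0.940 to 1.10 here. Dividing by it returned a whole number of reads (tolerance 0.1) for 99.925% to 99.971% of values, 34587978 to 40841478 reads per library. The deposited p-value and FDR, and the deposited signed fold change, a score, are the authors' own.

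Genes kept by edgeR's (4.0.16) filterByExpr on the recovered reads (minimum count 10, minimum total 15) were tested with limma (3.58.1, trended variances) on log2(value + 1), two-sided, old minus young, and called at a Benjamini-Hochberg adjusted p under 0.05. The added 1 understates changes of genes with few reads, such as Celf3. Each gene's longest protein-coding GENCODE M21 transcript gave its length and GC content, available for 93.8% of tested genes, and their trends were removed per library with mgcv (1.9.3). Alternatives were edgeR's quasi-likelihood test and DESeq2 (1.42.0) on recovered reads, other scalings, filters and pseudocounts (0.5 and 5), and libraries left out. Steps were tested on simulated data. The members, gene lists and tests were chosen with earlier results of these data known. All 10 members are named, with up to 4 genes per other list by smallest p and 5 defining markers; some of these genes are not reported here.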

Additional observations from a re-analysis of the deposited data

How the results depend on the processing

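Elavl3 and Rbfox3 were lower at the threshold in 18 of 19 other settings, Rbfox2 and Nova2 in 17, Celf3 in 9 of 18, Elavl2 in 4, Elavl4 and Rbfox1 in 1 each, and Nova1 and Celf4 in none with limma, edgeR, DESeq2 or the authors' deposited test (unadjusted limma p = 0.660 and 0.0996). Every member except Nova1 kept a negative sign in all settings run. The members called numbered 4 to 7 with 1 library left out, 2 in the paired fit with the replicate block and the length and GC trends removed together, and 0 without both young 1 and old 2. No label says that equal replicate numbers pair an old with a young sample. The correlations of deviations for equal numbers were -0.29, -0.41 and -0.05. With 3 libraries per group they cannot settle whether the samples were handled in pairs. The replicate block left 4 members called, and 2711 of all genes (1078 higher, 1633 lower), against 5493 (2524 higher, 2969 lower). Together with removal of the length and GC trends it left 828 (369 higher, 459 lower). The length and GC trends removed alone left 3409 (1520 higher, 1889 lower), the fit without both young 1 and old 2 left 1776 (831 higher, 945 lower), and an adjusted p under 0.01 left 1866 (763 higher, 1103 lower). With 1 library left out the count was 2588 to 6114 (1158 to 2755 higher, 1430 to 3359 lower). Upper-quartile scaling gave 3439 higher and 2338 lower, or 59.5% rises. Fits with fewer libraries or a stricter threshold hold less power by construction. Without old 3, though, the calls rose to 6114 genes and 7 members, against 5493 and 5 with all libraries. The cause of the differences between settings was not tested. Celf3 has the fewest reads, and its call was lost in 5 of 6 fits with 1 library left out, while the fold change of Celf4 ranged over -1.25 to -0.36 in them. The replicate block left 5 of the 25 other regulators lower and 0 higher.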
